A study of Mus musculus with 14 samples.

Results

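Schwann cell and enteric neuron genes were followed through bulk RNA-Seq of the 2 layers of the mouse esophagus. The set held 7 of the 55291 gene symbols in the count files, taken as the rows whose symbol equals one of 7 names. The glial genes were Mbp, Pmp22, Sox10 and S100b, and the neuronal genes were Ret, Elavl4 and Uchl1. All 9 mice were C57BL/6, with no allele or agent named in the labels, and were young (4 months or less) or aged (18 months or more). Epithelium, peeled free of the muscle, came from 5 aged mice (O1, O2, O3, OF5 and OM8) and 4 young mice (Y1, Y3, YF5 and YM4), and stroma came from 5 of these mice, the aged O1, O2 and O3 and the young Y1 and Y3. Peeled sheets are enriched for epithelium rather than pure, and how the stroma was taken is not given in the sources used here, though skeletal muscle genes were abundant in it. The labels give no sex for the 5 mice with both layers.

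The esophageal wall receives its nerve supply from the vagus and from the enteric nervous system, whose ganglia lie between the layers of muscle. Schwann cells wrap the axons of extrinsic nerves, enteric glia surround the neurons in the ganglia, and both descend from the neural crest under the control of SOX10. Myelin is the stacked membrane that a Schwann cell winds around 1 axon, and MBP and PMP22 are among its proteins. Enteric neurons depend on RET, the receptor for ligands of the GDNF family, and contain the neuronal RNA-binding protein HuD (Elavl4) and the ubiquitin hydrolase PGP9.5 (Uchl1), both used as stains for ganglia. The mouse esophagus is unusual in that its muscle is mostly striated, so that stroma here also holds skeletal muscle and its motor axons.

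Total counts were 8217516 to 21867101 per sample. The 4 mice with epithelium only stood apart, with 1042394 to 1433857 counts in protein-coding genes and 63.9% to 73.9% of all counts in the repeated locus CT010467.1, against 6665526 to 11067320 protein-coding counts in the other 10. Levels are given below as normalized counts, that is CPM, read counts scaled to a common library size, with library sizes adjusted by the trimmed mean of M values (TMM). A limit of 3 counts, which is what a count of 0 allows from counting error alone, was 0.707 to 1.25 normalized counts in those 4 samples and 0.0872 to 0.175 in the other 10. Genes detected with 1 or more counts ranged from 20115 to 25497 in aged stroma and from 34224 to 41308 in young stroma. Markers matched the labelled layers: the summed level of 12 skeletal muscle genes was 42353 to 76538 in stroma and 169 to 1855 in epithelium, and that of 4 keratin genes was 33.5 to 419 in stroma and 16297 to 52579 in epithelium. Fibroblast genes were not restricted to stroma, with a summed level of 415 to 1031 there and 280 to 632 in epithelium.

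Stroma was compared with epithelium first, over all 14 samples, to ask in which layer the nerve genes were expressed. Of the 7 genes, Uchl1, S100b, Sox10, Ret and Pmp22 were higher in stroma, by 50.8-fold, 14.9-fold, 11.9-fold, 10.02-fold and 3.02-fold. Mbp was not called different between the layers, and Elavl4 was too low to be tested. A gene was called when edgeR's quasi-likelihood test gave it a Benjamini-Hochberg adjusted p below 0.05. Of the 16791 genes tested, 56.2% were called in either direction and 30.1% were called higher in stroma, so a call in this comparison was common. In 4 of the 7 genes (Sox10, S100b, Ret and Uchl1) the measured level of every stromal sample lay above that of every epithelial sample, as in 16.9% of all tested genes. For S100b the separation is within counting error, since its level in O1 stroma (0.525) is under the limit of 3 counts in the 4 mice with epithelium only. The filter on low counts can be passed through stroma alone, and Sox10, S100b, Ret and Uchl1 reached 10 counts in 2, 1, 4 and 1 of the 9 epithelial samples. Because these are bulk tissues, fewer cells of a type and less RNA per cell cannot be told apart.

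**Figure D1:**
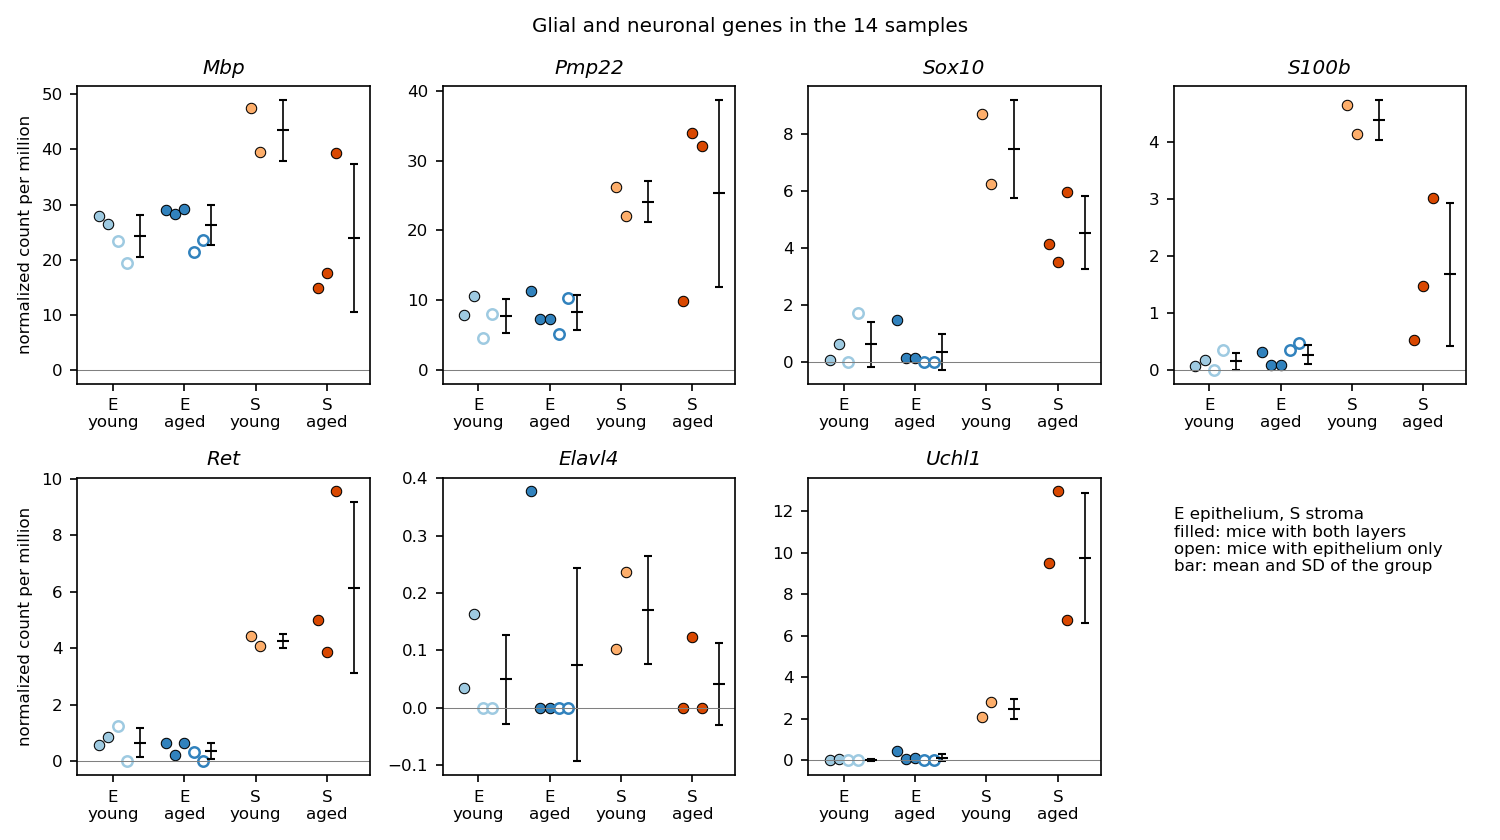
Normalized counts (CPM) of the 7 genes by layer and age (E, epithelium; S, stroma), with a point for each sample and the mean and SD beside it; open points are mice with epithelium only. Measured levels of Uchl1, Sox10 and Ret were higher in all 5 stromal samples than in all 9 epithelial samples. The highest epithelial value of Sox10 rested on 5 reads and that of Ret on 3. S100b separated only by less than the counting limit in mice with epithelium only. The layers overlapped for Mbp, Pmp22 and Elavl4, and each panel has its own linear axis.

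Among the glial genes, Sox10 encodes the transcription factor that specifies and maintains glia of the peripheral nervous system (GRCm38, chromosome 15, 79154908 to 79165240, minus strand). Its level in stroma was 4.14, 3.49 and 5.97 normalized counts in the aged mice (O1, O2, O3) and 8.72 and 6.26 in young mice Y1 and Y3. In the 9 epithelial samples it ranged from 0 to 1.73 with a median of 0.121. The measured values did not overlap, but the highest epithelial value, 1.73 in YM4, rested on only 5 reads and is imprecise. The next highest was 1.48 in O1, from 51 reads. The log2 fold change of stroma over epithelium was 3.57 ± 0.65 (SE; adjusted p = 9.67e-05). Without the epithelial sample of O1, an alternative added after the data were seen, it was 4.37.

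S100b encodes a calcium-binding protein that is abundant in Schwann cells and enteric glia and is also present in adipocytes (chromosome 10, 76253853 to 76261159, plus strand). Stromal levels were 0.525, 1.48 and 3.02 normalized counts in O1, O2 and O3 and 4.64 and 4.14 in Y1 and Y3. Epithelial levels ranged from 0 to 0.471 with a median of 0.164, and in 1 of the 9 samples no read was counted. The 2 layers came close in mouse O1, whose stroma had 9 reads and whose epithelium had 11. The measured values did not overlap, but the 4 mice with epithelium only had 0 to 2 reads, where 3 counts make 0.707 to 1.25, so that they cannot be placed below the O1 stroma at this depth. The log2 fold change was 3.90 ± 0.62 (SE; adjusted p = 2.06e-05). The summed level of 7 adipocyte genes was 165 to 885 in stroma and 11.4 to 17.9 in epithelium. It was highest in Y3 stroma (885) and was 212 in Y1 stroma, where S100b was highest, and its part in the S100b level was not tested.

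Pmp22 encodes a tetraspan protein of compact myelin that is also made by fibroblasts, endothelium and other cells outside nerve (chromosome 11, 63128982 to 63159547, plus strand). Stromal levels were 9.86, 34.0 and 32.2 normalized counts in O1, O2 and O3 and 26.2 and 22.1 in Y1 and Y3. Epithelial levels ranged from 4.58 to 11.3 with a median of 7.83, and every epithelial sample had at least 11 reads. The stroma of O1 lay within the epithelial range, and the other 4 stromal samples lay above it. The log2 fold change was 1.59 ± 0.25 (SE; adjusted p = 1.59e-05), the smallest of the 5 called genes. Within mice, stroma exceeded epithelium in 4 of 5, by 2.08-fold to 4.67-fold, and the ratio was 0.874 in O1.

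Pmp22 is known to be transcribed from alternative starts, an upstream one used in Schwann cells and downstream ones used more widely, which gene counts add together. RefSeq promoter windows of 300 bases, 250 before and 50 from the start, were available for 4 of the 7 genes (Pmp22, S100b, Elavl4 and Uchl1, GRCm38.p6) and are shown for the 3 of these that were called. They are printed 5′ to 3′ on the strand of the gene, with CG pairs in capitals to compare how CpG-rich each start is. The first of 4 Pmp22 windows (chr11:63128732-63129031, plus strand), the last of them (chr11:63132553-63132852, plus strand), the S100b window (chr10:76253586-76253885, plus strand) and the Uchl1 window (chr5:66675871-66676170, plus strand) read:
Pmp22, first start: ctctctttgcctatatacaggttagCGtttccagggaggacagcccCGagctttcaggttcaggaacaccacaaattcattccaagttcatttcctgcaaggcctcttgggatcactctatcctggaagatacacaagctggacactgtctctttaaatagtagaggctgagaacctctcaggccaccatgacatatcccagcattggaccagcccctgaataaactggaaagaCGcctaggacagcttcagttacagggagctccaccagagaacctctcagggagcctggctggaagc
Pmp22, last start: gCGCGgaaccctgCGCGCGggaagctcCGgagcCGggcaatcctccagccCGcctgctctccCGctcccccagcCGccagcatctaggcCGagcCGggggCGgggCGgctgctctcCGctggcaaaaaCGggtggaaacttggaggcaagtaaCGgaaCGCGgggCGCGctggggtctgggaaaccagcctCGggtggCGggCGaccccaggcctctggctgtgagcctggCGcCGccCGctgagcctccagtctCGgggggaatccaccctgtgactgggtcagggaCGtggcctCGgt
S100b: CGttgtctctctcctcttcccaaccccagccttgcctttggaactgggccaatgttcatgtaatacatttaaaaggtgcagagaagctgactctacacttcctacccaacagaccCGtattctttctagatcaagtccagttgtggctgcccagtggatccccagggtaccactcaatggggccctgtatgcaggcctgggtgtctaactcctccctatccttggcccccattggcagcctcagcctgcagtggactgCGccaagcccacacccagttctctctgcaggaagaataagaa
Uchl1: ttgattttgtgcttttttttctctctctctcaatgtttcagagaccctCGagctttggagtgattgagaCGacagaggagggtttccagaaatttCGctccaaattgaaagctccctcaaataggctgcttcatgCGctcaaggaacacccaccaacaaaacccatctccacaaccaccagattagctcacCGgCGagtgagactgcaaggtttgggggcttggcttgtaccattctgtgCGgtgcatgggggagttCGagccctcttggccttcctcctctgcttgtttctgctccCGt

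The upstream Pmp22 window had 3 CG pairs and the S100b window also 3, a number that 31.4% of all 32851 windows did not exceed. The 3 downstream Pmp22 windows had 18, 20 and 30 CG pairs, and the Uchl1 window had 9, against a median of 7. Neither ACAAAG nor AACAAT, 2 short forms of the sequence that SOX proteins bind, was found on either strand of the 4 printed windows, and 27.0% of all windows hold 1 of them. Which Pmp22 start was used in each layer cannot be read from gene counts.

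Mbp encodes myelin basic protein and, from an upstream start in cells that make no myelin, the golli proteins (chromosome 18, 82475146 to 82585637, plus strand). Stromal levels were 14.9, 17.5 and 39.3 normalized counts in O1, O2 and O3 and 47.4 and 39.6 in Y1 and Y3. Epithelial levels ranged from 19.4 to 29.2 with a median of 26.4 and at least 56 reads in every sample. Stroma thus fell on both sides of a narrow epithelial range, below it in O1 and O2 and above it in O3, Y1 and Y3. The log2 fold change was 0.31 ± 0.23 (SE; adjusted p = 0.253). Without mouse O1 it was 0.53 and was called (adjusted p = 0.042), and it was also called when only genes with 10 counts in every sample were tested (0.63, adjusted p = 0.0153).

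The neuronal genes divided into 2 that were called and 1 at the limit of detection. Uchl1 (chromosome 5, 66676091 to 66687234, plus strand) was at 9.51, 13.0 and 6.77 normalized counts in the stroma of O1, O2 and O3 and at 2.12 and 2.80 in that of Y1 and Y3. In epithelium no read was counted in 5 of 9 samples, and the highest level was 0.436 (15 reads, mouse O1). The layers were far apart, with 41 to 316 reads in each stromal sample, and the log2 fold change was 5.67 ± 0.64 (SE; adjusted p = 2.27e-07). The antisense gene Uchl1os shares 295 exonic bases with Uchl1 and had 0 to 8 reads per sample, and the strand setting of the counting was not given in the sources used here.

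Ret, the receptor tyrosine kinase (chromosome 6, 118151745 to 118197718, minus strand), was at 5.02, 3.86 and 9.56 normalized counts in the stroma of O1, O2 and O3 and at 4.44 and 4.10 in that of Y1 and Y3. Epithelial levels ranged from 0 to 1.25 with a median of 0.567. The measured levels of all stromal samples lay above those of all epithelial samples, but the highest epithelial value, 1.25 in YF5, rested on 3 reads. Within stroma, 4 of the 5 samples were close together, with O3 at 250 reads above them. The log2 fold change was 3.32 ± 0.46 (SE; adjusted p = 3.66e-06).

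Elavl4 (chromosome 4, 110203722 to 110351909, minus strand) did not pass the filter in any comparison. Its reads numbered 0, 3 and 0 in the stroma of O1, O2 and O3 and 2 and 6 in that of Y1 and Y3. In epithelium there were 13 reads in O1, 5 in Y3, 1 in Y1 and 0 in the other 6 samples. The 3 samples with most reads were thus O1 epithelium, Y3 stroma and Y3 epithelium, and these were also the 3 with most genes detected (38332, 41308 and 39907). A difference between the layers was not detectable at this depth, and the part of the number of detected genes in these reads was not tested. The other neuronal Hu genes were also low, with Elavl3 at 0 to 1.34 and Elavl2 at 0.0383 to 1.17 normalized counts in stroma, and neither was tested. Elavl1, the family member made in all tissues, was lower in stroma (log2 fold change -0.64 ± 0.22 SE, adjusted p = 0.016), a call lost in 4 of 18 alternatives.

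Levels of different genes were compared per kilobase of merged exons (GENCODE M21), which spanned 8469 bases for Mbp, 2354 for Pmp22, 3051 for Sox10, 1484 for S100b, 6763 for Ret, 5387 for Elavl4 and 1632 for Uchl1. In stroma the order of median levels was Pmp22 (11.1 normalized counts per kb), Mbp (4.64), Uchl1 (4.15), S100b (2.04), Sox10 (1.96), Ret (0.656) and Elavl4 (0.0192). Pmp22 was above Mbp, Sox10 was above Ret and Ret was above Elavl4 in all 5 stromal samples, whereas Mbp and Uchl1, Uchl1 and S100b, and S100b and Sox10 changed places between samples. In epithelium Pmp22 (3.33) and Mbp (3.12) led with ranges that overlapped, and both were above the next gene, S100b (0.110), in all 9 samples. The order of S100b, Ret (0.0838) and Sox10 (0.0397) in epithelium rested on few reads. Elavl4 and Uchl1 had medians of 0 per kb there.

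**Figure D2:**
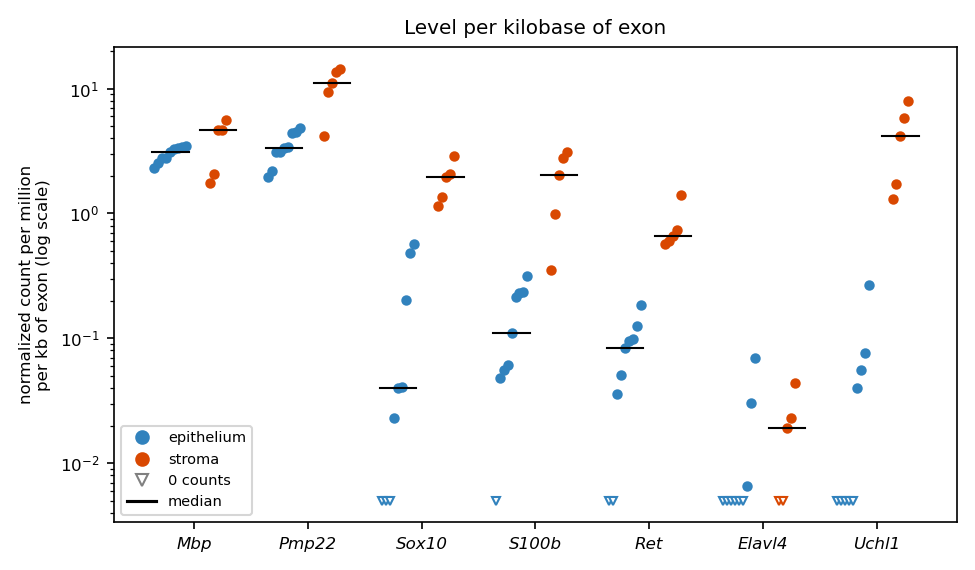
Normalized counts per kilobase of merged exon (log axis) for each gene, with a point for each of the 9 epithelial and 5 stromal samples, a line at the median and open triangles for samples with 0 counts. Pmp22 and Mbp were expressed in both layers, at medians of 3.33 and 3.12 in epithelium and 11.1 and 4.64 in stroma, and the other 5 genes had epithelial medians of 0.110 or less, with single values up to 0.567 (Sox10, YM4).

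Other genes of myelin and of glia, from lists of 19 and 15 genes, were in part too low to be tested. Of the myelin genes, 12 were tested, 8 were higher in stroma, 1 was lower and 3 were not called. Of all tested genes, 30.1% were called higher. The median log2 fold change was 2.56 for the tested myelin genes and 0.05 over all tested genes. Gjc3 and Cldn19 reached 10 reads in 1 of the 9 epithelial samples and Drp2 in 3. Such genes passed the filter mainly through stroma, which favoured a higher level there. Higher genes were Drp2 (4.30) and Prx (3.04), of the complex that links Schwann cells to their basal lamina, the connexin gene Gjc3 (4.14), the claudin gene Cldn19 (3.35) and Cnp (2.08). The myelin transcription factor gene Egr2, outside the 8 named by size, was called at 1.52 (adjusted p = 0.049), but lost the call in 11 of 17 alternatives. Gjb1, the connexin-32 gene of Schwann cells, which epithelia also express, was lower in stroma (log2 fold change -2.28, adjusted p = 0.036, lost in 5 of 16 alternatives). When the 5 mice sampled in both layers were fitted with a term for each mouse (a mouse block), Prx (2.61, adjusted p = 0.112), Egr2 (1.67, adjusted p = 0.113) and Gjb1 (-3.37, adjusted p = 0.0568) were not called.

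The list of Schwann cell and enteric glia genes had 13 members tested, of which 8 were higher in stroma, 2 were lower and 3 were not called. The median log2 fold change was 1.91, and 30.1% of all tested genes were called higher. Gpr37l1 and Sox8 reached 10 reads in 1 of the 9 epithelial samples, Col28a1 in 2 and Cdh19 in 3. These genes passed the filter mainly through stroma. The potassium channel gene Kcna1 (4.19), the cadherin gene Cdh19 (4.16), the receptor gene Gpr37l1 (3.95), the SOX10 relative Sox8 (2.995), the collagen gene Col28a1 (2.72), the sodium channel gene Scn7a (2.20), the enteric glial nucleotidase gene Entpd2 (1.45) and the adhesion gene Cadm4 (0.81) were higher, the last of these outside the 8 named by size. Erbb3, the neuregulin receptor gene on which Schwann cells depend and which keratinocytes also express, was lower in stroma (-2.73 ± 0.27 SE), at 2.86 to 12.8 normalized counts there and 52.3 to 66.4 in epithelium. The adhesion gene L1cam was lower as well (-1.12). Under the mouse block Cadm4 (0.52, adjusted p = 0.271) and Col28a1 (2.62, adjusted p = 0.175) were not called, and Cadm4 lost the call in 12 of 18 alternatives. Col28a1 was also not called without O2 (2.36, adjusted p = 0.0611). SOX10 also marks melanocytes, and MBP oligodendrocytes. The summed level of 5 melanocyte genes was 0.421 to 4.39 in stroma, where the melanin enzyme gene Tyr had 0 to 19 reads, and that of 5 oligodendrocyte genes was 0 to 5.95, where Mog had 0 or 1 read. The highest value of the latter came from 61 reads of Opalin in O1, the gene having 0 to 8 reads in the other stromal samples.

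**Figure D3:**
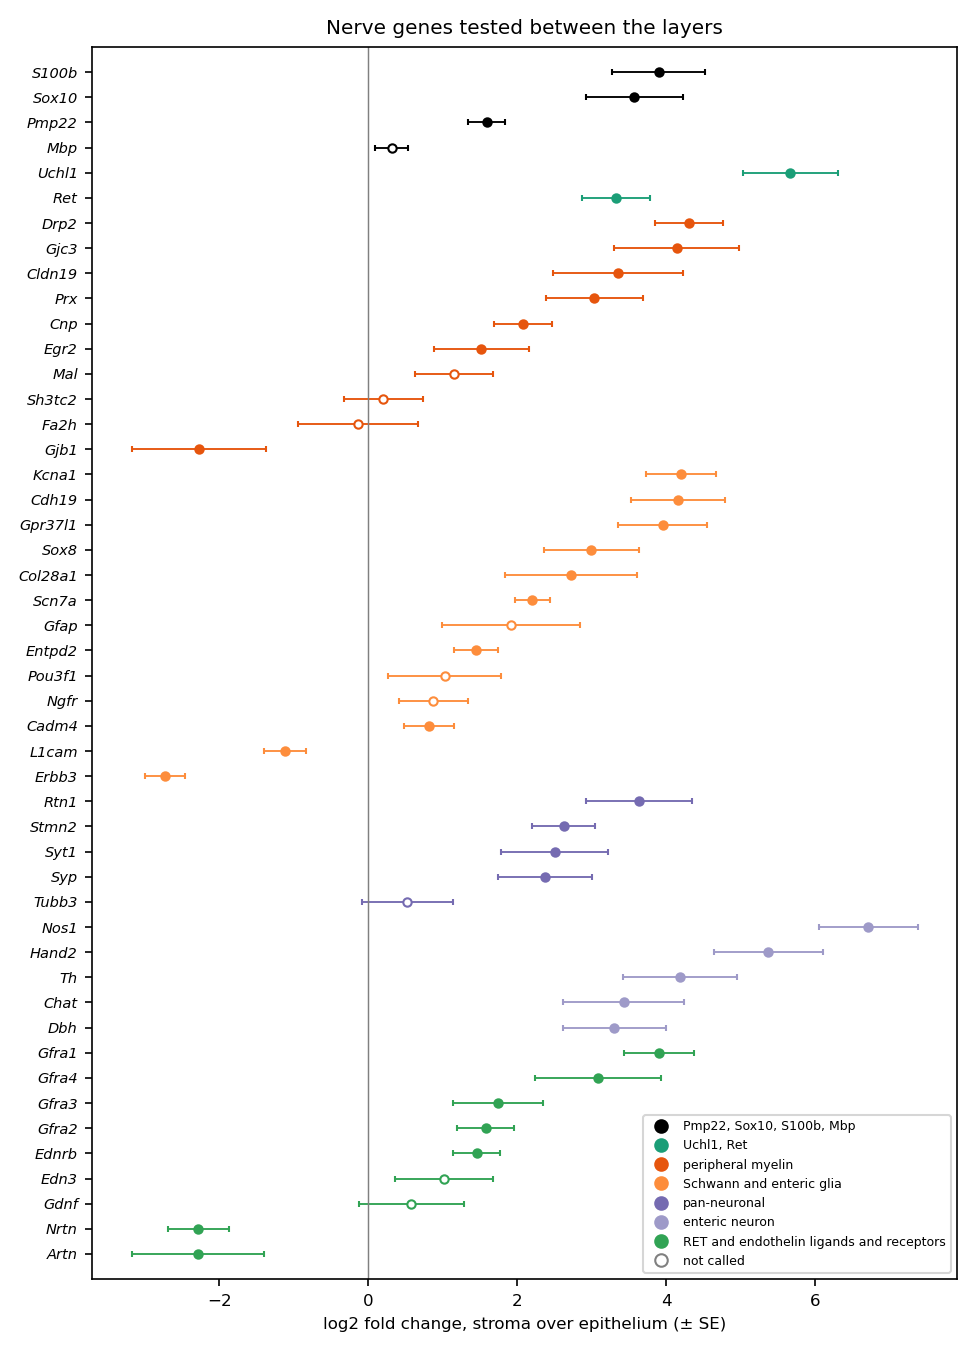
Log2 fold change of stroma over epithelium with its SE for the nerve genes tested, coloured by list; filled points passed an adjusted p of 0.05. Most glial and neuronal genes lay to the right of 0, between 0.81 and 6.71 where called, while the called genes Gjb1, Erbb3, L1cam, Nrtn and Artn and the uncalled Fa2h lay to the left.

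Neuronal genes beyond the 3 were sparse. Of 12 pan-neuronal genes, 5 were tested and 4 were higher in stroma, with a median of 2.50 over the 5. Over all tested genes, 30.1% were called higher and the median was 0.05, here and for the enteric neuron genes below. The 4 genes reached 10 reads in 1 to 3 of the 9 epithelial samples and so passed the filter mainly through stroma. They were Rtn1 (3.64), Stmn2 (2.62), the synaptotagmin gene Syt1 (2.50) and the synaptophysin gene Syp (2.38, and 2.12 with an adjusted p of 0.0803 under the mouse block). Of 18 enteric neuron genes, 5 were tested and all 5 were higher in stroma, with a median of 4.19, but 4 of these had under 10 reads in every epithelial sample and could hardly have passed the filter otherwise. They were the nitric oxide synthase gene Nos1 (6.71), the neural crest factor gene Hand2 (5.37), the catecholamine enzyme genes Th (4.19) and Dbh (3.30), and the choline acetyltransferase gene Chat (3.43). Nos1, at 187 to 348 normalized counts in stroma, is also made by skeletal muscle fibres. The neuropeptide gene Vip was not tested and reached 1.81 normalized counts at most in stroma. No gene of these lists was without counts in all 5 stromal samples.

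RET acts together with GFRA co-receptors that bind GDNF, neurturin, artemin or persephin, and a second pathway of enteric neuron development runs from endothelin-3 to EDNRB. The co-receptor genes Gfra1 (3.90), Gfra4 (3.09), Gfra3 (1.75) and Gfra2 (1.57) and the receptor gene Ednrb (1.45) were higher in stroma, as Ret was. The ligand genes Nrtn (-2.28) and Artn (-2.29) were lower in stroma, and Nrtn was at 3.45 to 8.22 normalized counts in epithelium. The ligand genes Gdnf (0.57 ± 0.70 SE, adjusted p = 0.51) and Edn3 (1.02 ± 0.66 SE, adjusted p = 0.20) were not called, and Pspn was not tested. In all, 9 of 10 genes were tested, 5 were higher and 2 lower, with a median of 1.45. Of all tested genes, 30.1% were called higher and 56.2% in either direction, with a median of 0.05. Gfra4 reached 10 reads in 1 of the 9 epithelial samples, and Gfra1 and Gfra3 in 2. These 3 genes passed the filter mainly through stroma. Under the mouse block Gfra2 (1.28, adjusted p = 0.0641), Gfra4 (2.01, adjusted p = 0.185) and Artn (-3.22, adjusted p = 0.0655) were not called, and Artn lost the call in 9 of 17 alternatives. Gfra4 was also not called without O2 (1.78, adjusted p = 0.115). Gfra3 lost the call in 3 of 17 alternatives, without O2 (1.62, adjusted p = 0.0675), without Y3 (1.66, adjusted p = 0.0606) and with no filter (1.49, adjusted p = 0.166).

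Old and young stroma were compared next, to ask whether nerve genes change with age. No gene was called, among the 7 or elsewhere: of 21323 genes tested, 0 (0%) passed, 776 had an unadjusted p below 0.05, and DESeq2 called 2, neither among the 7. Mbp, Sox10 and S100b were lower in all 3 aged samples than in both young samples, and Uchl1 was higher in all 3 aged samples. For Mbp and Sox10 the nearest values of the 2 ages, from O3 and Y3, were close together. Among all tested genes, every aged sample lay below every young sample in 14% and above in 6.57%.

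For the glial genes, the stromal values listed above gave log2 fold changes of aged over young of -0.87 ± 0.40 (SE) for Mbp, -0.73 ± 0.52 for Sox10, -1.38 ± 0.87 for S100b and 0.07 ± 0.47 for Pmp22, each with an adjusted p of 1.0. Unadjusted p-values in edgeR's test were 0.057, 0.189, 0.146 and 0.88. For Mbp the lowest young value (39.6, Y3) and the highest aged value (39.3, O3) were nearly equal, and the difference rested on O1 and O2. Without O3 it was -1.46, and without O1 it was -0.61. Pmp22 did not separate the ages, with 9.86 to 34.0 in aged and 22.1 to 26.2 in young stroma. For Sox10 the highest aged value (5.97 from 156 reads, O3) was also close to the lowest young value (6.26 from 159 reads, Y3). The mean Sox10 level was 4.53 ± 1.28 (SD, n = 3) in aged and 7.49 ± 1.74 (SD, n = 2) in young stroma. That of S100b was 1.68 ± 1.26 and 4.39 ± 0.36.

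For the neuronal genes, Uchl1 was at 9.75 ± 3.11 (SD, n = 3) in aged and 2.46 ± 0.48 (SD, n = 2) in young stroma. Its log2 fold change was 1.98 ± 0.53 (SE), the unadjusted p was 0.0041 and the adjusted p was 1.0 in edgeR's test. It was between 1.68 and 2.17 when any 1 mouse was left out. Ret was at 6.15 ± 3.01 in aged and 4.27 ± 0.24 in young stroma, which overlapped, with a log2 fold change of 0.52 ± 0.59 (SE, adjusted p = 1.0). Elavl4 was not tested, with 3 reads over the 3 aged and 8 over the 2 young samples.

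**Figure D4:**
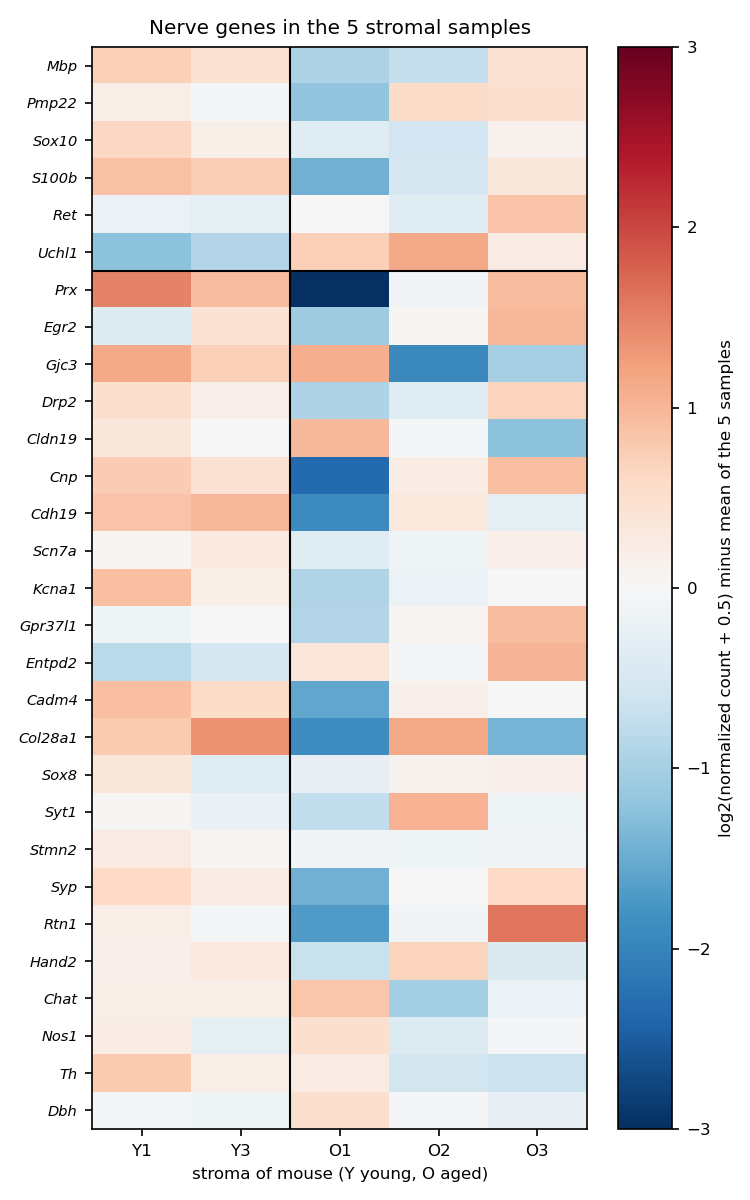
Level of the nerve genes that were called higher in stroma, with Mbp, in the 5 stromal samples, as log2(normalized count + 0.5) minus the mean of the gene over the 5 samples; the vertical line divides young (Y) from aged (O) and the horizontal line divides Mbp, Pmp22, Sox10, S100b, Ret and Uchl1 from the other lists. Most rows of glial genes were lowest in O1, Uchl1 was higher in O1, O2 and O3 than in Y1 and Y3, and no row was called between the ages.

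The other lists in stroma gave no call either. Of 16 myelin genes tested, 2 had a positive log2 fold change, and the median was -0.72 against -0.01 over all tested genes. Of 15 Schwann cell and enteric glia genes, 5 were positive and the median was -0.40, and Entpd2 (1.25) was higher in all aged samples. Cdh19 was at 1.87, 10.5 and 6.89 normalized counts in O1, O2 and O3 and at 15.6 and 17.2 in Y1 and Y3 (log2 fold change -1.34). Kcna1 was at 7.64, 12.8 and 14.7 in the aged and at 27.7 and 16.6 in the young samples (-0.92). Both were lower in all aged samples than in both young samples. The 11 pan-neuronal genes tested had 6 positive values and a median of 0.38, the 16 enteric neuron genes had 7 and a median of -0.24, and the 8 genes of the RET and endothelin list had 5 and a median of 0.10. The low enteric neuron genes Calb2 and Chrnb4 had 0 reads in all 3 aged samples and 28 and 15, and 19 and 13, reads in Y1 and Y3.

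Other measures in stroma were also compared between the ages. The number of detected genes was lower in all 3 aged samples, as given above. The summed keratin level was 36.8, 419 and 201 in O1, O2 and O3 and 66.4 and 33.5 in Y1 and Y3, so it overlapped. The summed level of the 12 skeletal muscle genes overlapped (42353 to 76538 in aged, 53190 to 67380 in young stroma), as did that of the 7 adipocyte genes (165 to 359 and 212 to 885). All 7 adipocyte genes had a negative log2 fold change of aged over young (median -1.32) and all 4 keratin genes a positive one (median 2.21), none of them called. The part of these in the differences was not tested. O1 had the lowest stromal level for 3 of the 4 glial genes, for 8 of 12 myelin genes and for 9 of 13 Schwann cell and enteric glia genes, against 31.3% of all genes tested. It was also lowest for 5 of 6 fibroblast and 3 of 3 endothelial genes, and highest for 10 of 12 skeletal muscle genes.

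In epithelium, aged against young, 2 of 15859 genes were called (0.0126%) and none was among the 7. With a covariate that sets apart the 4 mice with epithelium only, whose codes have another form, the log2 fold changes were 0.07 ± 0.12 (SE) for Mbp, 0.01 ± 0.23 for Pmp22, 0.03 ± 1.06 for Sox10 and -0.67 ± 0.65 for Ret, each with an adjusted p of 1.0. S100b, Uchl1 and Elavl4 did not pass the filter there. Mbp was at 26.3 ± 3.58 (SD, n = 5) in aged and 24.3 ± 3.77 (SD, n = 4) in young epithelium, and its change had the smallest SE of the 4. Within epithelium Mbp was at 26.4 to 29.2 in the 5 mice with both layers and 19.4 to 23.6 in the 4 mice with epithelium only, and these sets did not overlap, whereas the ages did.

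Whether age acted differently in the 2 layers was tested as an interaction within the 5 mice that gave both layers (10 samples). Of 22771 genes tested, 0 (0%) were called by edgeR's quasi-likelihood test, 979 had an unadjusted p below 0.05 and DESeq2 called 62, none of them among the 7. The interaction, as the change with age in stroma less that in epithelium, was -0.95 ± 0.50 (SE) for Mbp, 0.17 ± 0.63 for Pmp22, -1.47 ± 1.43 for Sox10, -1.87 ± 1.34 for S100b, 0.99 ± 0.82 for Ret and -0.59 ± 1.08 for Uchl1 on the log2 scale, each with an adjusted p of 1.0. Without mouse O1 the sign turned for Sox10 (0.92) and for Uchl1 (0.59), genes with few epithelial reads. The sign for Uchl1 also turned without mouse Y1 (0.042).

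The epithelium of mouse O1 had high levels of several glial genes and of the neuronal genes Uchl1 and Elavl4. Sox10 had 51 reads in it, Uchl1 15 and Elavl4 13. This sample had 2.15 normalized counts of Cdh19 and 2.56 of Kcna1, where the other 8 epithelial samples had at most 0.692 and 1.04. O1 had the highest epithelial level for 5 of 12 myelin genes and 6 of 13 Schwann cell and enteric glia genes, and for 6.44% of all genes tested. The summed level of the 12 pan-neuronal genes was 3.52 in it and 1.74 to 4.81 in the other 4 mice with both layers. The summed level of the 12 skeletal muscle genes was 493 in it and 169 to 1855 in the other epithelial samples, and its part in these levels was not tested. All 5 called genes kept their call without this sample, and the log2 fold change of Uchl1 was then 6.71.

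The genes whose levels ran most like each member over the 14 samples were found by the mean absolute difference between log2(normalized count + 0.5) values, each centred on the gene's mean, among 14693 other genes tested between the layers with an average log2 CPM of 0 or more (14694 for Elavl4). Uchl1 was closest to the lymphoid chemokine gene Ccl21a (0.197), Shisal1 (0.267) and Snai3 (0.277). Sox10 was closest to Alas2 (0.371), Vash2 (0.375) and Ncam1 (0.396), and S100b to Dlc1 (0.269), Slc1a5 (0.291) and Gpm6b (0.297). Ret ran closest to Nuak1 (0.276), Fuom (0.294) and Arl6ip5 (0.306), and Pmp22 to the matrix genes Timp3 (0.199) and Nid1 (0.210) and to Otud7b (0.204). Mbp was closest to Ptpn4 (0.210), Tyk2 (0.214) and Ncoa4 (0.220), which are expressed in both layers as Mbp is. Elavl4, nearly flat at 0, was closest to genes that were flat at higher levels, Dhx57 (0.138), Pds5b (0.159) and Evi5 (0.163). No other member of the 7 was among the closest 3 of any. The closest pair within the 7 with both genes tested was Pmp22 and S100b (0.445), and Mbp and Uchl1 were the least alike (1.49). The added 0.5 shrinks differences of genes near 0, and S100b was at 0 to 0.471 in epithelium. Its likeness to genes at higher levels is therefore not an equal fold change. Dlc1 was at 7.79 to 14.8 in epithelium, and the layer change was 14.9-fold for S100b and 3.02-fold for Pmp22.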

How the data were processed

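Bulk RNA-Seq of poly(A)-selected RNA (NEB Ultra II libraries) was analysed in 14 samples of 9 mice, grouped by layer and age from the labels. The deposited values are raw counts per gene, with 1 file per sample. Per the study's methods the authors aligned reads to GRCm38 with Rsubread, counted them per GENCODE gene with featureCounts and tested with DESeq2, and the submitters' processing notes name GRCm38 and bcl2fastq. The annotation release and the strand setting were not given in the sources used here. Gene counts add all transcripts of a gene, so isoforms were not separated.

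Counts were fitted over all genes with edgeR 4.0.16 (R 4.3.3; limma 3.58.1) by glmQLFit and glmQLFTest, after TMM scaling and filterByExpr with a minimum count of 10, with Benjamini-Hochberg adjustment and a threshold of 0.05. Layers were compared over all 14 samples, ages in stroma over 5 samples and in epithelium over 9 with a covariate for the 2 forms of mouse code, and the interaction over the 10 samples from mice that gave both layers. Samples are separate mice within a group, and the layers of 1 mouse are not independent. The 5 mice with both layers pair the layers because the labels give the same mouse code to both. Deviations of the 2 layers from their group means were correlated over 11037 genes. In the aged mice this gave -0.0241 to 0.0426 within a mouse and -0.0369 to 0.0456 between mice. In the young mice it gave 0.136 within and -0.136 between. With 2 young mice the deviations mirror each other, so these are 1 value with opposite signs and cannot contrast the pairs. The alternatives were DESeq2 1.42.0, other filters and scaling, mitochondrial and repeated loci left out, a mouse block, other sets of samples and each mouse left out. The fit was tested on simulated data.

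The 7 genes and the other gene lists were chosen with earlier results of these data known. The text names all 7, up to 8 called genes of each list by size of log2 fold change, and the 3 genes most like each of the 7. Egr2, Cadm4, L1cam and other list genes named outside this rule were chosen after their values were seen. Some genes of the lists are counted but are not reported here by name. Of 55291 symbols, 53292 were found in GENCODE M21, from which positions and exon lengths were taken. Normalized counts use the TMM-adjusted library size, and the limit of 3 counts covers counting error only. Each SE or SD also covers variation between samples. No replicate pair differed by less than sampling noise. Figures were drawn with matplotlib 3.10.9.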

Additional observations from a re-analysis of the deposited data

Results flagged for a closer look

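In groups of 4 to 10 samples, the highest or lowest sample was tested for standing apart from the others by Dixon's ratio, which chance passes in about 1 of 20 groups. Of 28 groups of the 7 genes, 6 held such a sample, and 4 of the 6 were the epithelium of mouse O1. The groups are not independent, since aged and young epithelium lie within all epithelium. A lone value above 0 among zeros gives the largest possible ratio. The 6 of 28 can therefore not be set against that rate. Sox10 in aged epithelium was highest there, at 1.48 normalized counts against 0.124 in the next sample. Elavl4 was highest there at 0.378, against 0 in the other aged samples and 0.164 in the next of all 9 epithelial samples, which rests on 13 reads. Uchl1 was highest there at 0.436, against 0.124 in the next epithelial sample. In young epithelium Uchl1 was highest in Y3 at 0.0654, with 0 in the other 3 samples, and this rests on 2 reads. Ret in stroma was highest in O3, at 9.56 against 5.02 in the next sample.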

How the results depend on the processing

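The calls of Pmp22, Sox10, S100b, Ret and Uchl1 between the layers held under every alternative that could test them. No log2 fold change of the 42 genes followed in that comparison changed sign. These were the tested genes of the 7 and 36 called list genes. Uncalled list genes, Gdnf, Edn3 and Fa2h among them, were not followed. A filter of 10 counts in every sample left 4316 genes called and 2 of the 7, Mbp and Pmp22, since Sox10, S100b, Ret and Uchl1 were no longer tested. Leaving out 1 mouse gave 8395 to 9484 genes and 5 to 6 of the 7. Among list genes, Egr2 lost its call without O2, O3, OF5, Y1, Y3, YF5 or YM4 (0.997 to 1.57), Cadm4 without O2, O3, OF5, OM8, Y1, Y3 or YM4 (0.63 to 0.88), Artn without O1, O2, O3, Y3 or YF5 (-2.57 to -1.92), Gjb1 without O1, O3 or Y1 (-1.97 to -1.82) and Elavl1 without O3, Y1 or Y3 (-0.54 to -0.50).

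With mouse as a replicate block in the 5 mice with both layers, 8590 genes were called (9400 without the block), again with 5 of the 7, and Mbp was at 0.02 and Uchl1 at 5.72. Beyond the list genes given above, the block changed no call of the genes followed, and it left 0 genes called in the interaction.

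Between ages in stroma, DESeq2 called 2 genes, no filter 26, the spread shared over 10 samples 2 and over all 14 samples 77. Leaving out 1 mouse gave 0 to 13 genes, with 13 without Y1 and 7 without Y3, where the lone young sample is assumed to vary as the aged ones do. None of the 7 was called in any. In epithelium DESeq2 called 28 genes, no filter 36, no covariate 0, the 5 mice with both layers 4, and leaving out 1 mouse 0 to 3. For the interaction DESeq2 called 62 genes, no filter 98, all 14 samples 14, and leaving out 1 mouse 0 to 0. The cause of these shifts was not tested.

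Changes of sign were limited to uncalled values. For Pmp22 in stroma the change with age was -0.031 with upper quartile scaling and -0.23 to 0.46 with 1 mouse left out. For Pmp22 in epithelium it was -0.10 in the 5 mice and -0.14 to 0.21 with 1 mouse left out. For Sox10 in epithelium it was -0.98 with DESeq2, -0.10 with no filter, -0.021 with mitochondrial and repeated loci left out, and -0.95 to 0.72 with 1 mouse left out. The interaction of Pmp22 was -0.024 over all 14 samples and -0.16 to 0.90 with 1 mouse left out, that of Sox10 -3.82 to 0.92 and that of Uchl1 -3.33 to 0.59. Without a filter the median layer difference of all genes moved from 0.05 to 0.56 and the median change with age in stroma from -0.01 to -0.60.

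Depth limited the epithelial levels. In the 4 mice with epithelium only, a count of 0 allows up to 0.707 to 1.25 normalized counts, above the epithelial medians of Sox10, S100b, Ret, Elavl4 and Uchl1.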
